A study of Caenorhabditis elegans with 2 samples.

Results

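A set of 10 genes of the Wnt and beta-catenin pathway was examined for binding of LSY-2, a zinc finger transcription factor, in Caenorhabditis elegans. They were taken by name, not by any measured value, from the 19973 protein-coding genes in the WBcel235 annotation. Earlier results of these data were known when they were chosen. Chromatin immunoprecipitation and sequencing (ChIP-seq) had been done on whole worms of mixed sex at the fourth larval stage (L4), in 1 group of 2 biological replicates. Both replicates came from strain OP367, genotype unc-119(tm4063) III; wgIs367, a stable transgenic line in which LSY-2 carries GFP-FLAG at its C terminus. All samples share the unc-119 allele and the transgene, and the series holds no untagged or mutant group. Neither the promoter of the transgene nor the state of the endogenous gene is stated in the labels. Because whole animals were used, a peak cannot be assigned to a cell type, and strong binding in few cells cannot be told apart from weak binding in many.

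Wnt ligands bind Frizzled receptors at the cell surface, and Dishevelled proteins pass the signal on inside the cell. Without the signal, a complex built on the scaffold Axin, with the tumour suppressor APC, marks beta-catenin for destruction. With it, beta-catenin reaches the nucleus and works with a TCF transcription factor. C. elegans divides the work of beta-catenin among several proteins. BAR-1 acts in a canonical pathway, WRM-1 and SYS-1 act in asymmetric cell divisions, and HMP-2 acts mainly in cell adhesion. The genes encode the Dishevelled proteins MIG-5, DSH-1 and DSH-2, these 4 beta-catenins, the TCF factor POP-1, the APC-related APR-1 and the Axin PRY-1.

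The sequence under 3 of the summits is printed to set the strongest peak beside a pair of weaker ones. A summit is the base of highest enrichment in a peak. Each line gives the 101 bases around one summit on the forward strand of ce11, 5′ to 3′, with the summit at base 51. Capitals mark a match, on either strand, to GAGAGA or AGACGCAG, words that were reported earlier as frequent at the summits of this series. The regions are chrII:8185165-8185265 for mig-5, which has the highest signal of the 10 genes, chrII:5081336-5081436 for dsh-2 and chrIII:5722019-5722119 for wrm-1.
mig-5: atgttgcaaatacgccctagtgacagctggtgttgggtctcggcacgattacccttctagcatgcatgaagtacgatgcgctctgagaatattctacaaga
dsh-2: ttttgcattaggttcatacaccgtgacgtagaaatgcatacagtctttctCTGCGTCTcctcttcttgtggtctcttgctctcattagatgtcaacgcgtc
wrm-1: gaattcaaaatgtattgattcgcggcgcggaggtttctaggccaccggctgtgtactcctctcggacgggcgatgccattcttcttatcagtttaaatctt
At dsh-2, a gene on the reverse strand, the word AGACGCAG read on the gene's own strand covers the summit base. Of all 5944 thresholded summits, 59 (0.993%) lay inside this word. The windows of mig-5 and wrm-1 hold neither word.

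Peaks passing the authors' reproducibility threshold (irreproducible discovery rate, IDR) lay at 6 of the 10 genes: mig-5, dsh-2, wrm-1, sys-1, hmp-2 and pry-1. A peak was counted when its summit lay within the gene or up to 2000 bp upstream of any annotated transcript 5′ end. By the same rule, 25.9% of all protein-coding genes had such a peak. Longer genes offer longer windows, and the windows of the 10 genes ran from 4.70 to 12.98 kb. Among the 6484 protein-coding genes with windows in that range, 33.2% had a peak. The 6 genes held 7 peaks, 2 of them at pry-1, and all 7 summits lay upstream of the gene and none inside it. Among all genes with a thresholded peak, 27.5% had a summit inside the gene. The 4 genes without a thresholded peak were dsh-1, bar-1, pop-1 and apr-1. With 1 group and no contrast between samples, no test was made, and these shares are descriptions.

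The 3 Dishevelled genes ranged from the highest signal of the set to no thresholded peak. The mig-5 peak (chrII:8184988-8185440) reached 3571 in replicate 1 and 2766 in replicate 2 in the authors' deposited signal, a mean of 3169 ± 569 (SD, n = 2). It ranked 11 in the pooled list and in each replicate, and its summits in the replicates lay 4 bp apart. The pooled signal was 6304, where the median of all thresholded peaks was 114.8. The summit lay 192 bp upstream of mig-5 and 228 bp upstream of cct-1, a subunit gene of the cytosolic chaperonin on the opposite strand, so the summit lies between the 5′ ends of both genes. By the sum of rank differences over the pooled and both replicate lists, the 3 summits most like it were those at cap-2 and gmps-1 (summed difference 3), at Y25C1A.8 and copb-1 (3) and at lin-7, elof-1 and Y54G11A.17 (6).

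The dsh-2 peak (chrII:5081294-5081476) was far lower. Its signal was 125.5 in replicate 1 and 68.4 in replicate 2, a mean of 96.9 ± 40.4 (SD, n = 2), with a pooled signal of 193.4. It ranked 1430 and 2072 in the replicates, and their summits lay 56 bp apart. The pooled summit, 212 bp upstream of dsh-2, lay in the window of no other gene. The signals of mig-5 exceeded those of dsh-2 in both replicates.

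The long gene dsh-1, with 8 annotated transcripts and 7 5′ ends, had 9 regions in the pooled list and none above the threshold. Its strongest region lay 1134 bp upstream, with a pooled signal of 50.6 (rank 7094), against 35.4 in replicate 1 and 25.3 in replicate 2 alone. The summits of that region in the replicates lay 133 bp apart. The other 8 regions of dsh-1 were intronic. One of them lay 164 bp upstream of an internal 5′ end, and its signals were 26.1 in replicate 1 and 10.3 in replicate 2. A thresholded summit stood just outside the window, 2577 bp upstream of dsh-1. Its pooled signal of 60.4 was close to the lowest of the thresholded list, 59.9, and it lay 1935 bp upstream of the gene EGAP2.2.

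**Figure D1:**
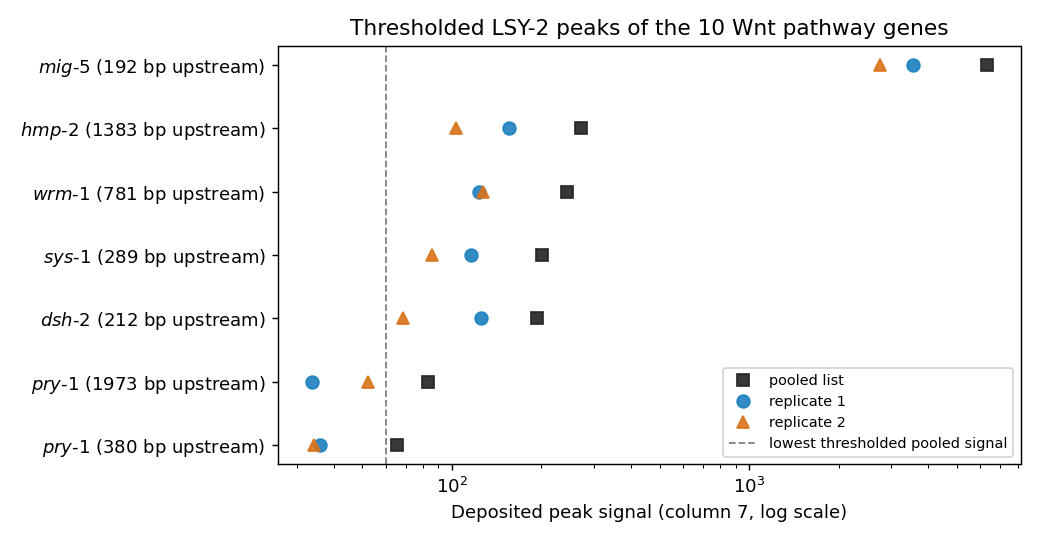
Deposited signal (horizontal, log scale) of the 7 thresholded peaks in the pooled list (squares), replicate 1 (circles) and replicate 2 (triangles), with the lowest thresholded pooled signal of 59.9 as a dashed line. The mig-5 peak stands apart from the other 6, and pooled signals exceed those of either replicate at every peak.

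Among the beta-catenin genes, 3 of 4 had a thresholded peak, with replicate signals between 85.5 and 156.1. Of all protein-coding genes 25.9% had one, and 33.2% of those with windows in the length range of the set. With only 4 genes this count is a description. At wrm-1, which encodes a beta-catenin that acts with the kinase LIT-1 on POP-1, the peak (chrIII:5721961-5722169) measured 123.2 in replicate 1 and 127.1 in replicate 2, a mean of 125.1 ± 2.76 (SD, n = 2). These near signals came with unlike ranks, 1462 in replicate 1 and 870 in replicate 2. The pooled signal was 243.9 (rank 1153), and the summit lay 781 bp upstream of wrm-1 and in the window of no other gene.

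At sys-1, whose product is a coactivator of POP-1, the peak (chrI:9984977-9985125) measured 115.5 in replicate 1 and 85.5 in replicate 2, a mean of 100.5 ± 21.2 (SD, n = 2). Its summit lay 289 bp upstream of the gene, with a pooled signal of 201.5 (rank 1529), and the non-coding RNA gene T23D8.10 was the only other gene whose window held it. A far stronger thresholded summit, with a pooled signal of 1043 (rank 171), lay 148 bp beyond the 3′ end of sys-1 and so outside its window. That summit was 253 bp upstream of eif-3.C, a translation initiation factor gene.

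The peak counted for hmp-2, the beta-catenin of cell junctions, lay closer to another gene. It covered chrI:14737388-14737608, and measured 156.1 in replicate 1 and 103.3 in replicate 2, a mean of 129.7 ± 37.3 (SD, n = 2), and a pooled signal of 271.2 (rank 980). The summit lay 1383 bp upstream of hmp-2 but 203 bp upstream of K05C4.7, a gene on the same strand that spans from 14737702 to 14738796 and so lies between the summit and hmp-2. Nearer to hmp-2, an intronic region 92 bp inside the first 5′ end stayed below the threshold, with a pooled signal of 46.1. Its signal was 39.8 in replicate 1 (rank 5812), and the nearest region of replicate 2, 189 bp away, had 11.9 (rank 16412).

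The order of these 3 genes differed between the replicates. In replicate 1 hmp-2 was highest, then wrm-1, then sys-1, and in replicate 2 wrm-1 was highest, then hmp-2, then sys-1. The signal of sys-1 was lower than those of wrm-1 and hmp-2 in both, and with 2 replicates this has no test.

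The beta-catenin gene bar-1 was the only one of the 10 with no region in the pooled list or in either replicate list, each of which holds 30000 peaks and background regions. Its nearest region of the pooled list lay 5.04 kb from the gene and its nearest thresholded summit 11.2 kb away. A lack of any region is common, since 51.5% of all protein-coding genes had none in these 3 lists. That share was not matched for window length. The bar-1 window was 6.62 kb, where the median over all genes was 4.03 kb. The lists are limited to a fixed number of regions, so weaker enrichment at bar-1 was not measured.

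**Figure D2:**
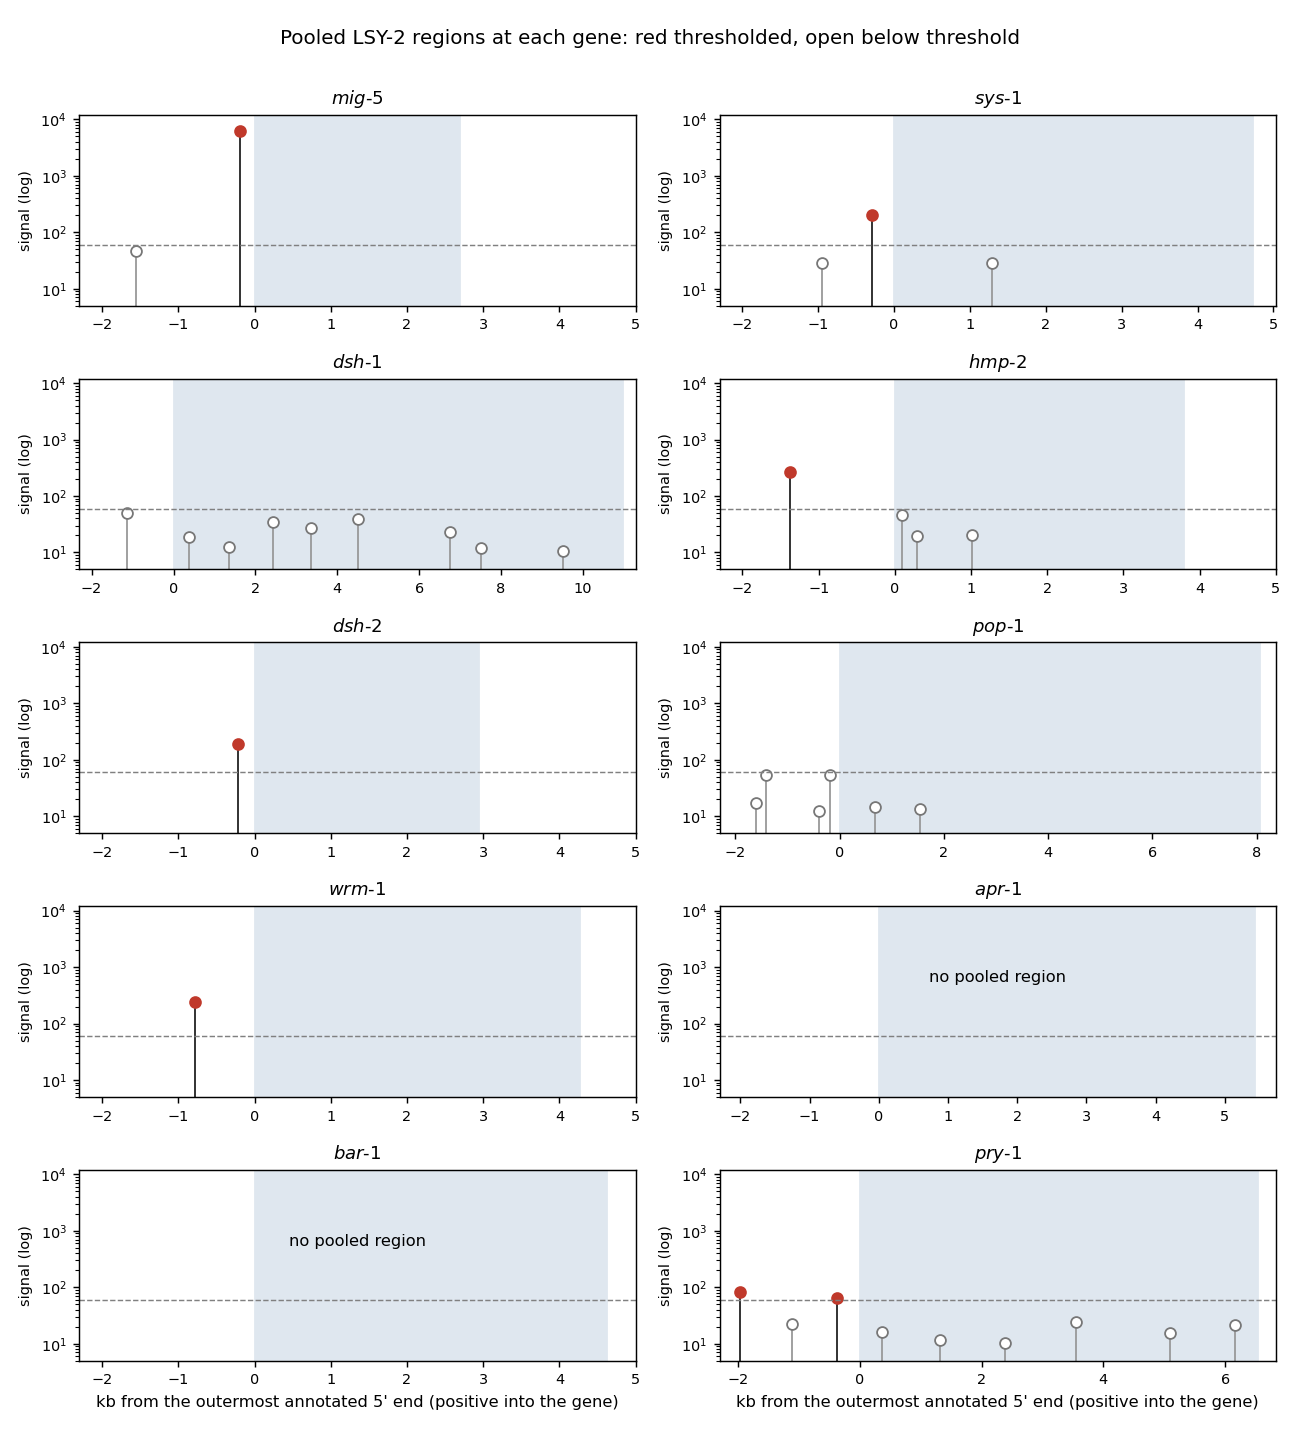
Pooled signal (vertical, log scale) of each pooled region against the distance of its summit from the outermost annotated 5′ end (horizontal, kb, positive into the gene), for each of the 10 genes. Shading marks the gene, red points are thresholded and open points are below the threshold, and the dashed line is the lowest thresholded signal, 59.9. All 7 red points lie left of the shading, and 20 of the 28 open points lie within it, a share that was not computed over all regions.

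Of the genes for Axin and APC proteins in the set, pry-1 had thresholded peaks and apr-1 had none. The Axin gene pry-1 had 2 thresholded peaks, the weakest of the 7. The farther one (chrI:14181153-14181512) had its summit 1973 bp upstream, just inside the window limit of 2000 bp. Its signal was 33.9 in replicate 1 (rank 6940) and 52.1 in replicate 2 (rank 2902), a mean of 43.0 ± 12.9 (SD, n = 2), with a pooled signal of 83.1 (rank 4217).

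The nearer pry-1 peak (chrI:14179560-14179919) had its summit 380 bp upstream. Its signal was 36.0 in replicate 1 (rank 6486) and 34.2 in replicate 2 (rank 4739), a mean of 35.1 ± 1.23 (SD, n = 2), with a pooled signal of 65.5 (rank 5433). Both peaks were thus beyond the 5944 strongest regions of replicate 1 and within those of replicate 2. No other gene's window held either summit.

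The APC-related gene apr-1 had 2 upstream regions in each replicate list but none in the pooled list. The stronger summit of replicate 1 lay 481 bp upstream with a signal of 21.5 (rank 11279), and that of replicate 2 lay 337 bp upstream with a signal of 11.9 (rank 16325). These summits were 144 bp apart. The weaker regions, farther upstream, ranked 29269 and 25665. Of the 18294 regions of replicate 1 with a summit of replicate 2 within 200 bp, 549 (3.0%) had no pooled summit within 200 bp of either.

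The TCF gene pop-1, the nuclear end of the pathway, came close to the threshold without reaching it. A region 181 bp upstream had a pooled signal of 53.5 (rank 6689), with 40.9 in replicate 1 (rank 5619) and 13.7 in replicate 2 (rank 14127). Another, 1411 bp upstream, had a pooled signal of 52.9 (rank 6764), with 29.9 in replicate 1 (rank 7950) and 22.5 in replicate 2 (rank 7880). The first rested mainly on replicate 1, whereas the second had like ranks in both. The strongest pop-1 region of replicate 2 was a different one, 1145 bp upstream, with a signal of 24.3 (rank 7222). It had no pooled summit within 200 bp. The nearest thresholded summit lay 23.2 kb from pop-1.

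Regions of several genes lay near the threshold. The lowest thresholded peak was that of pry-1 at 65.5, and below the limit of 59.9 came pop-1 at 53.5 and 52.9, dsh-1 at 50.6, a second region of mig-5 at 46.9 and the intronic region of hmp-2 at 46.1. These were the 5 regions below the threshold with a pooled signal above 40, and 4 of them lay upstream of the gene they were counted for. The second region of mig-5 lies inside cct-1, 1137 bp from the 5′ end of that gene, which is the nearest. In all, the 10 genes held 35 pooled regions at 8 genes, where 42.6% of all protein-coding genes had any. The 42.6% was not matched for window length, whose median was 6.68 kb in the set and 4.03 kb over all genes. Of the 28 regions below the threshold, 20 lay inside the gene they were counted for, and the highest signal among those 20 was 46.1. The genes dsh-1 (10985 bp) and pry-1 (6533 bp) held 9 pooled regions each. The same share over all regions below the threshold was not computed, so no contrast with the thresholded peaks is drawn.

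**Figure D3:**
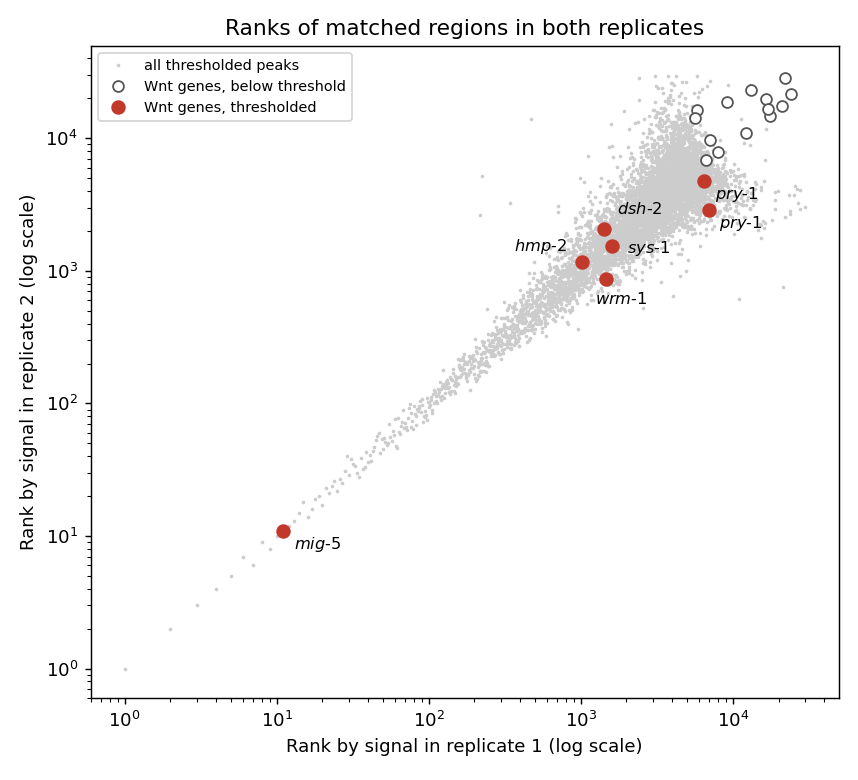
Rank by signal in replicate 1 (horizontal) against replicate 2 (vertical), both on log scales, for regions of the Wnt genes matched within 200 bp in both replicates and for all 5823 matched thresholded peaks (grey). The mig-5 peak ranks 11 in both, 4 peaks lie between ranks 870 and 2072, and the pry-1 peaks and the regions below the threshold (open) lie at rank 2902 or beyond in replicate 2.

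The replicates were compared at these genes and over the whole list. All 7 peaks had a summit within 200 bp in both replicates, and the median distance between the replicate summits was 23 bp, the same as over all thresholded peaks. The median log2 ratio of signal, replicate 1 over replicate 2, was 0.37 ± 0.49 (SD over 7 peaks), where all 5823 matched thresholded peaks had 0.51 ± 0.61. The ratio was highest at dsh-2 (0.88) and lowest at the farther pry-1 peak (-0.62). Signal was higher in replicate 1 at 5 of the 7 peaks, and at 85.9% of all matched thresholded peaks. Of the 35 pooled regions, 21 (60%) were matched in both replicates, and of all 30000 pooled regions 59.7% were. A replicate region could be matched to more than 1 pooled region, as at hmp-2. Of the 7 peaks, 5 were among the 2972 strongest of the 5944 thresholded peaks. The strongest peak of each of the 6 genes had a median pooled signal of 222.7, and that of all protein-coding genes with a thresholded peak 168.5.

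Sharing of summits with neighbours was also examined. Of the 7 summits, 2 lay in the window of another protein-coding gene, cct-1 for mig-5 and K05C4.7 for hmp-2. Of all thresholded summits in at least 1 such window, 34.5% were in several. For 6 of the 7 summits the nearest protein-coding 5′ end was that of the Wnt gene itself, the exception being hmp-2.

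The words under the summits varied from gene to gene. Within 50 bp of the summit, GAGAGA lay at 2 of the 7 peaks, sys-1 with 4 matches, 3 of which overlap, and the farther pry-1 peak with 1, where 25.9% of all thresholded windows hold it. AGACGCAG lay at 2 peaks, dsh-2 and the farther pry-1 peak, where 9.34% of all thresholded windows hold it. Either word was thus present at 3 of 7 peaks, and in 30.3% of all thresholded windows. Farther out, AGACGCAG began 121 bp from the sys-1 summit and 70 bp from that of the nearer pry-1 peak. All letters were searched on both strands, and the words do not share letters at any of these places except beside the nearer pry-1 peak. The GC content of the 7 windows ran from 44.6% at dsh-2 and the nearer pry-1 peak to 54.5% at the farther pry-1 peak, above the median of 43.6% over all thresholded windows in each case. A match is a description of the letters and not evidence of a bound site.

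The wider pathway was then described from a list of 41 other Wnt genes grouped by role. Thresholded peaks lay at 16 of the 41 (39.0%), where 25.9% of all protein-coding genes had one, with 29 peaks in all. No share matched for window length was computed for these 41. With upstream sequence only, 13 (31.7%) had a peak, where 23.5% of all protein-coding genes did. The groups by role are small, and their counts are to be read beside the same unmatched 25.9%. The 5 Wnt ligand genes lin-44, egl-20, cwn-1, cwn-2 and mom-2 had no thresholded peak. Nor had they a region in the pooled list, where 42.6% of all protein-coding genes had one. With only 5 genes this count is a description. Of the 6 receptor genes, mom-5 (Frizzled) and cam-1 (Ror) had peaks, all with pooled signals between 73.6 and 94.8, and the upstream summit of mom-5 also lay in the window of algn-10. The receptor genes lin-17, mig-1, cfz-2 and lin-18 had none. One of the mom-5 peaks, in the 3′ UTR, ranked 23421 in replicate 1 and 3747 in replicate 2.

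Of the genes for Wnt secretion and trafficking, 4 of 5 had peaks, with the highest signals at mom-1 and snx-3. The gene mom-1, which encodes the Porcupine acyltransferase, had an intronic summit with a pooled signal of 881.2 (rank 216), with 483.1 in replicate 1 and 396.4 in replicate 2, and a second summit of 137.8 in the same peak interval. The sorting nexin gene snx-3 had 821.4 (rank 230), with 522.8 and 298.3 in the replicates, at a summit 344 bp upstream that also lay in the windows of rad-54.L and prmt-7. The retromer gene vps-35 had 117.4 and the myotubularin gene mtm-6 had 3 intronic peaks of 66.7 to 92.7. The Wntless gene mig-14 had none.

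Among kinases and the remaining genes of the destruction complex, 3 of 6 had peaks. The casein kinase gene kin-19 had a pooled signal of 353.0 (rank 672) at a summit 1155 bp upstream. The Nemo-like kinase gene lit-1, the partner of wrm-1, had 7 thresholded peaks, all intronic, of 66.8 to 186.5. One of them, at 66.9, had no summit of replicate 2 within 200 bp, and its interval overlapped that of the peak at 74.4. The TAB1-related gene tap-1 had 82.7 in a window shared with C44H4.4. The gsk-3, axl-1 and mom-4 genes had none.

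All 3 genes of the adherens junction that HMP-2 joins had peaks, hmp-1 (alpha-catenin) at 116.0, in a window shared with nphp-4, jac-1 (p120 catenin) at 109.1 and hmr-1 (cadherin) at 73.1. Both nuclear cofactor genes had peaks. The acetyltransferase gene cbp-1 had the highest signal of the 41, with a pooled 4351 (rank 23), 2536 in replicate 1 and 1818 in replicate 2, at a summit 909 bp upstream, and a second peak of 174.4. The Groucho gene unc-37 had 177.7. Of 9 target genes, the Hox genes lin-39 (206.5) and mab-5 (196.9 at the strongest of 3 peaks) had peaks. The other 7, egl-5, mec-3, ceh-22, tlp-1, end-1, end-3 and nhr-25, had none, nor had the inhibitors sfrp-1 and plr-1 or the planar polarity genes vang-1, prkl-1 and fmi-1.

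**Figure D4:**
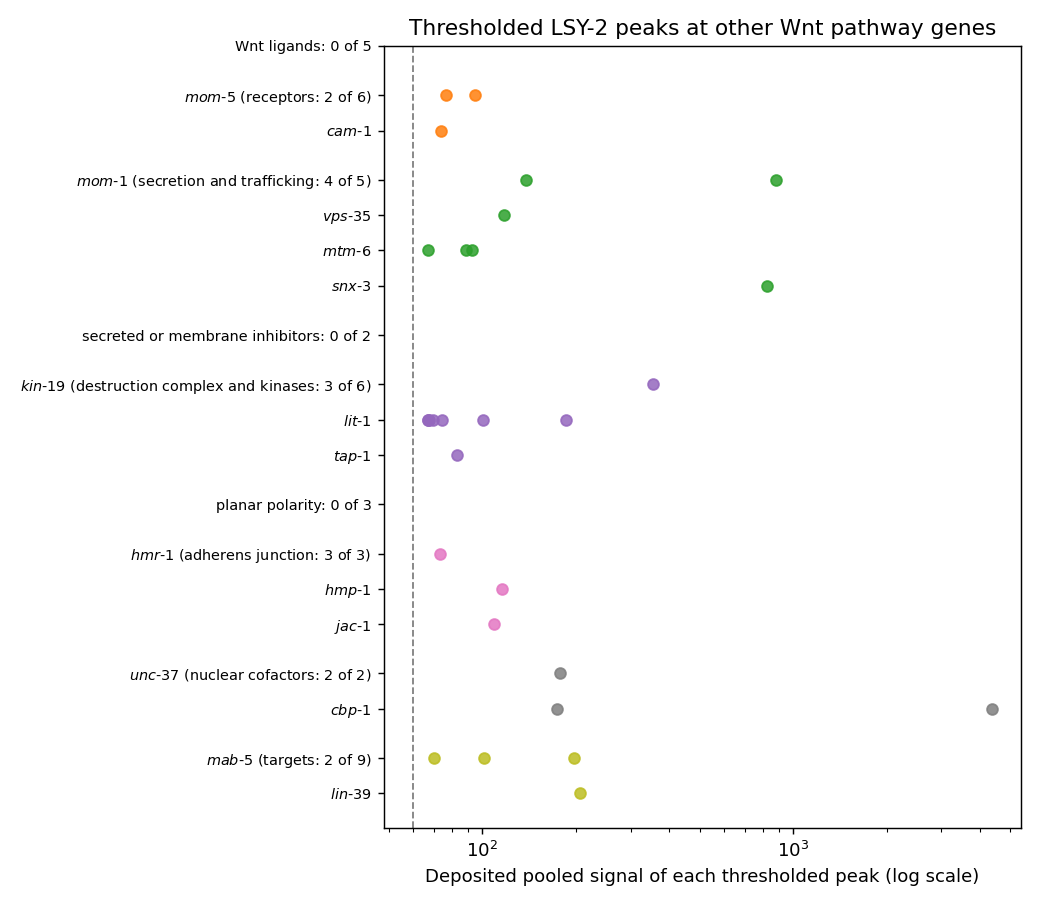
Pooled signal (horizontal, log scale) of each thresholded peak at the 16 of 41 other Wnt pathway genes that have one, by role, with the number of genes with a peak in each role. The highest points are those of cbp-1 (4351), mom-1 (881.2) and snx-3 (821.4), and ligands, inhibitors and planar polarity genes have no point.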

How the data were processed

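LSY-2 ChIP-seq was deposited as peak lists for 2 biological replicates. Per the deposited notes, the authors made a list of 30000 peaks and background regions for each replicate and for both pooled, each against a control alignment, and thresholded them by IDR on ce11 (5944 peaks). The caller was not given in the sources used here, nor were the aligner and the IDR limit. The deposited signal (column 7) has no stated scale. It was used within a list for value and rank, and between replicates as a log2 ratio and as a mean with SD. Each such SD also holds any difference in scale between the replicate lists. The deposited -log10 q-value reaches a cap (4.20 in the pooled list) in every thresholded peak and was not used further. The lists hold no read counts, so depth is unknown.

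The thresholded peaks were the 5944 strongest of the pooled list. Genes came from Ensembl release 115 (WBcel235, the ce11 sequence), and sequence from the RefSeq copy of WBcel235. No region ended beyond a chromosome end. Summits are column 2 plus column 10, given 1-based. A summit counted for every gene whose span or 2000 bp upstream window held it. Replicate summits were matched within 200 bp, and words were searched within 50 bp. Gene assignment was tested on simulated summits. All 10 genes are named, with neighbours whose window holds a thresholded summit, the 3 summits nearest in rank to the strongest, and those of the 41 other genes that have a peak, the rest being named without values. The 10 genes, the list of 41 and the words were chosen with earlier results of these data known. The ce10 lists were not used. Replicates came from separate biosamples by their labels. Windows of 500 and 1000 bp, upstream sequence only, the nearest gene only, the 2972 strongest peaks, each replicate alone, and other matching distances and word windows were tried. Python 3.11.15, numpy 2.4.6, pandas 2.3.3 and matplotlib 3.10.9 were used.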

Additional observations from a re-analysis of the deposited data

How the results depend on the processing

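The number of the 10 genes with a thresholded summit stayed between 4 and 6 under every window, list and replicate alternative. It was 5 with 1000 bp upstream, where hmp-2 was lost, and 4 with 500 bp, where wrm-1 was lost as well and the peaks fell from 7 to 4. The shares of all protein-coding genes were then 22% and 19.3%. Giving each summit to the nearest gene also lost hmp-2 (5 genes, where 18.4% of all genes had a peak), and the 2972 strongest peaks lost pry-1 (5 genes, against 17.7%). Each replicate alone gave 6 genes, against 26.2% of all genes, but without replicate 2 only 5 were shared with the thresholded list, since pry-1 was lost and pop-1 gained. Of the 41 other genes, 16 had a summit, and 10 did among the 2972 strongest peaks (24.4%). They numbered 13 (31.7%) with upstream sequence only, where all genes had 23.5%, and 13 with the nearest gene only. With 1 replicate alone they numbered 16 (39.0%) and 17 (41.5%). The log2 ratio of the replicates was 0.37 at each matching distance and 0.04 after dividing by the median of each list. Words lay at 3 of 7 peaks within 25 bp, where 18.2% of all thresholded windows hold one, and at 4 within 100 bp, where 43.4% do. Among the 2972 strongest peaks they lay at 2 of 5, where 32.2% of windows hold one. No paired analysis was possible because the series has 1 group. The unknown depth and the fixed number of regions per list limit what can be said of genes without a region.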
